A study of Eulimnogammarus verrucosus and Eulimnogammarus cyaneus and Gammarus lacustris with 24 samples.

Results

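DEAD and DEAH box RNA helicases are enzymes that spend ATP to open or remodel RNA duplexes and RNA-protein complexes. Different members act at different steps in the life of an RNA: spliceosome assembly and disassembly, maturation of the ribosomal subunits in the nucleolus, export from the nucleus, the start of translation, decay, and the silencing of transposons in the germ line. Base-paired RNA is more stable at low temperature, and bacteria raise particular DEAD box helicases in the cold. In amphipod crustaceans the family is known mainly by similarity to human, fly and yeast genes, so every role given here is that of the named gene in those species.

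Members were all entries of the authors' deposited tables of the cold comparison whose gene symbol starts with DDX, DHX or Dbp and a number, together with SKIV2L, SKIV2L2, SNRNP200, AQR, UPF1, MOV10 and the fly symbols me31B, vas, bel, Rm62 and pit. The fly symbols, Dbp and SKIV2L matched no entry. SKIV2L2, SNRNP200, AQR, UPF1 and MOV10 are helicases of related families and were kept as the rule has them. The rule gave 93 of 12688 entries under 45 different names: 24 of 3920 in Eulimnogammarus verrucosus, 29 of 3674 in Eulimnogammarus cyaneus and 40 of 5094 in Gammarus lacustris. Of the 45 names, 15 stood in all 3 tables, 18 in 2 tables and 12 in 1 table.

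Whole bodies of wild adult amphipods from the shore of Lake Baikal at Bolshie Koty were sequenced, from the endemic species E. verrucosus and E. cyaneus and from the Holarctic G. lacustris. All animals spent 14 days at 6 °C, were cooled to 1.5 °C or warmed to 12 °C over about 6 days, and stayed there for 1 month. The 6 groups were E. verrucosus at 1.5 °C and at 12 °C, E. cyaneus at 1.5 °C and at 12 °C, and G. lacustris at 1.5 °C and at 12 °C, with 4 libraries each. A library was a pool of whole animals, with 3 in each pool of E. verrucosus, about 13 for E. cyaneus and about 11 for G. lacustris. The sex of the animals is not given in the sources used here. The estimated counts of a library summed to 8501812 to 10176490 for G. lacustris, 10187150 to 15417647 for E. verrucosus and 9110152 to 14222361 for E. cyaneus.

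The deposited tables give 1 fold change per gene name, and 72 of the 93 members could be tied to their transcripts and so to a count in every library: 35 in G. lacustris, 18 in E. verrucosus and 19 in E. cyaneus. Of these, 52 passed the count filter, 30 in G. lacustris and 11 in each Eulimnogammarus species. Members that did not pass sat on short transcripts, with a median of 286 bases in E. verrucosus against 2331 for those that passed, 554.5 against 2263 in E. cyaneus and 494 against 2212.5 in G. lacustris. Levels are CPM, the count per 1000000 of the effective library size after TMM scaling, and are given for pools 1 to 4 in that order. Each fold change is the log2 ratio of 1.5 °C to 12 °C, from edgeR's quasi-likelihood test and Benjamini-Hochberg adjustment over all rows of the species (n = 4 pools per temperature), and a member is said to have risen or fallen where that adjusted p is under 0.05. In whole bodies, fewer cells of a type and less RNA per cell cannot be told apart.

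**Figure D1:**
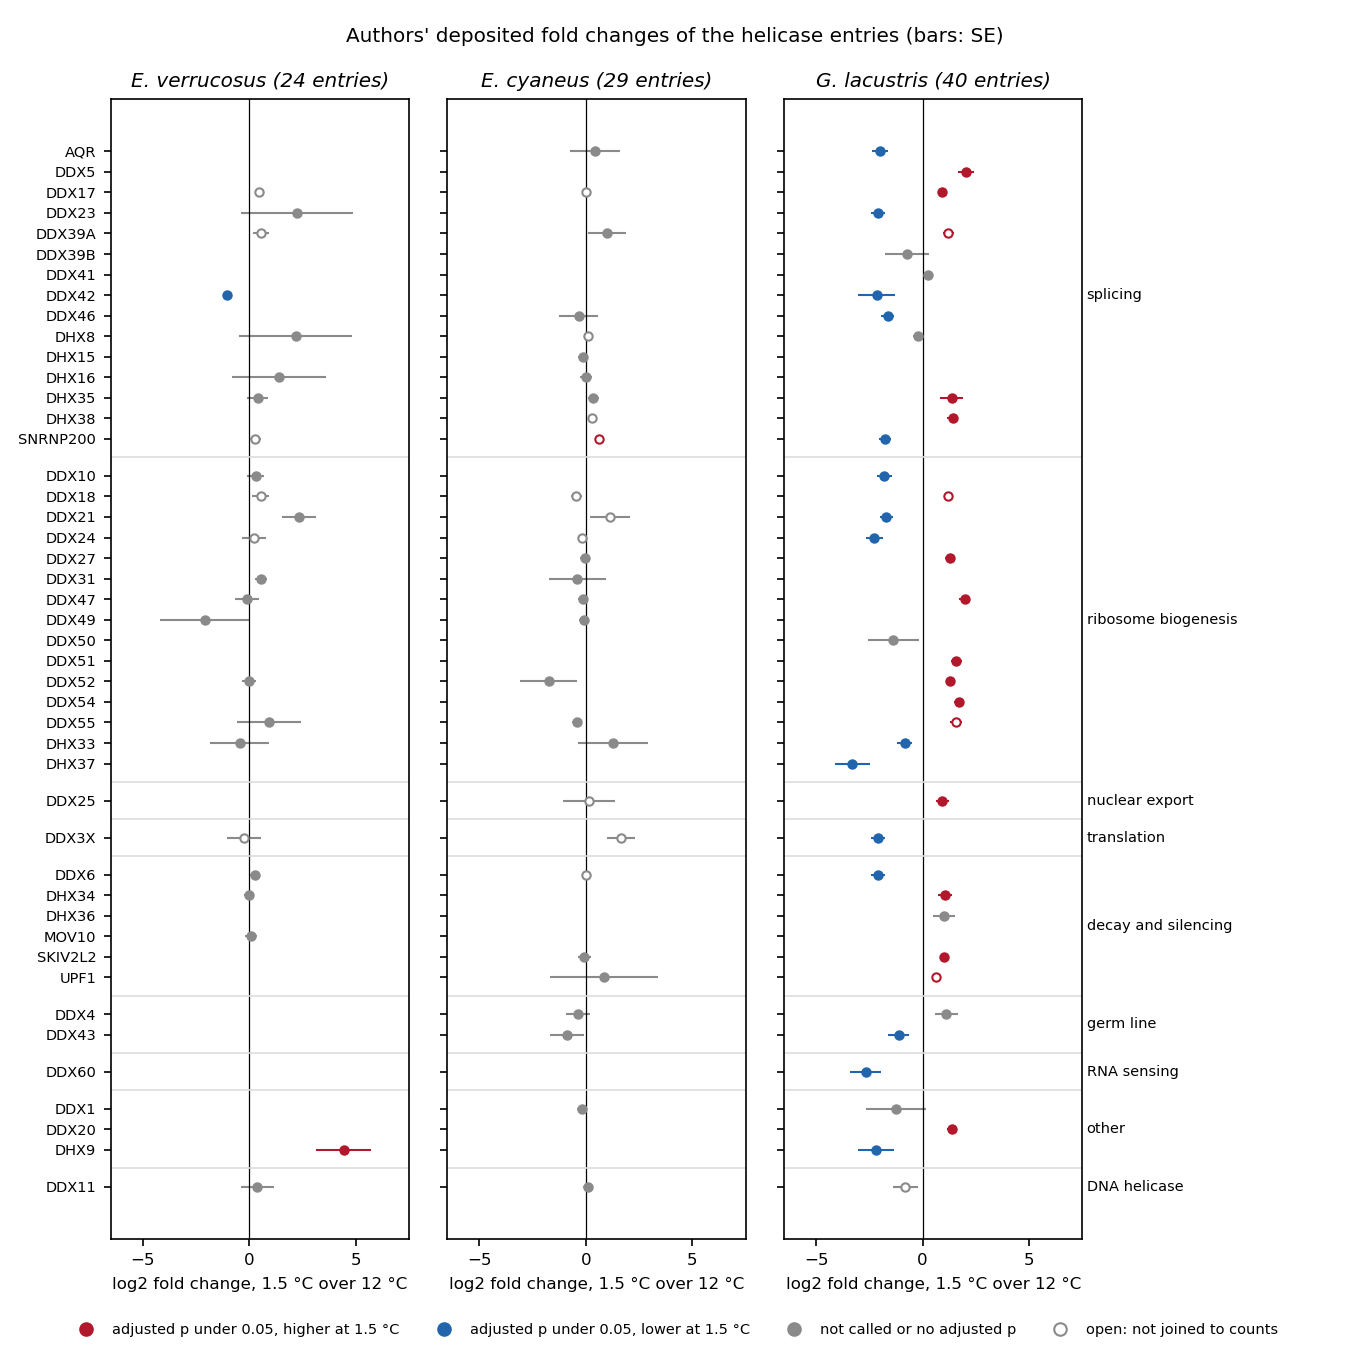
Log2 fold changes (1.5 °C over 12 °C, x axis) of all 93 helicase entries in the authors' deposited tables, by name and step of RNA life (y axis), with a panel per species. Points are the deposited values and bars their standard errors. In G. lacustris the entries lie in both directions, from −3.30 to 2.04, and the widest bars belong to entries with few counts.

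The 3 species differed in how many members were called. In E. verrucosus 1 of 11 members fell and the other 10 were not called, with 2 of the 11 at an unadjusted p under 0.05, where 3.34% of all 23659 rows were called and 2.02% called lower. In E. cyaneus 0 of 11 members were called by edgeR, with 0 at an unadjusted p under 0.05 and 0 by DESeq2, where 0.632% of all 20407 rows were called. In G. lacustris 23 of 30 members were called (76.7%), 9 higher and 14 lower, where 39.6% of all 26639 rows were called, 9.78% higher and 29.8% lower. Members carry names, and among the named rows of G. lacustris 55.2% were called, 9.65% higher and 45.6% lower. A row can pass the count filter through the group in which it is high, so the 23 of 30 describe the members that passed and not the whole list.

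The median log2 fold change of the members was −0.06 in G. lacustris, 0.12 in E. verrucosus and 0.01 in E. cyaneus, beside 0.11, −0.03 and 0.01 over all rows of those species and −0.37, −0.00974 and 0.07 over their named rows. The median of G. lacustris describes few of its rows, because its fold changes form 2 separate humps. With 0.2-wide bins, the fullest bins start at 0.4 and at −3.0. Of all rows, 29.2% lay below −1.5, a value chosen after the distribution was seen, and so did 43.9% of the named rows and 14 of the 30 members (46.7%). Those 14 members are the 14 called lower, between −3.85 and −1.89, while the other 16 members lay at −0.40 or higher. No member lay below −1.5 in either Eulimnogammarus species, where 4.50% of the rows of E. verrucosus and 1.97% of those of E. cyaneus did.

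**Figure D2:**
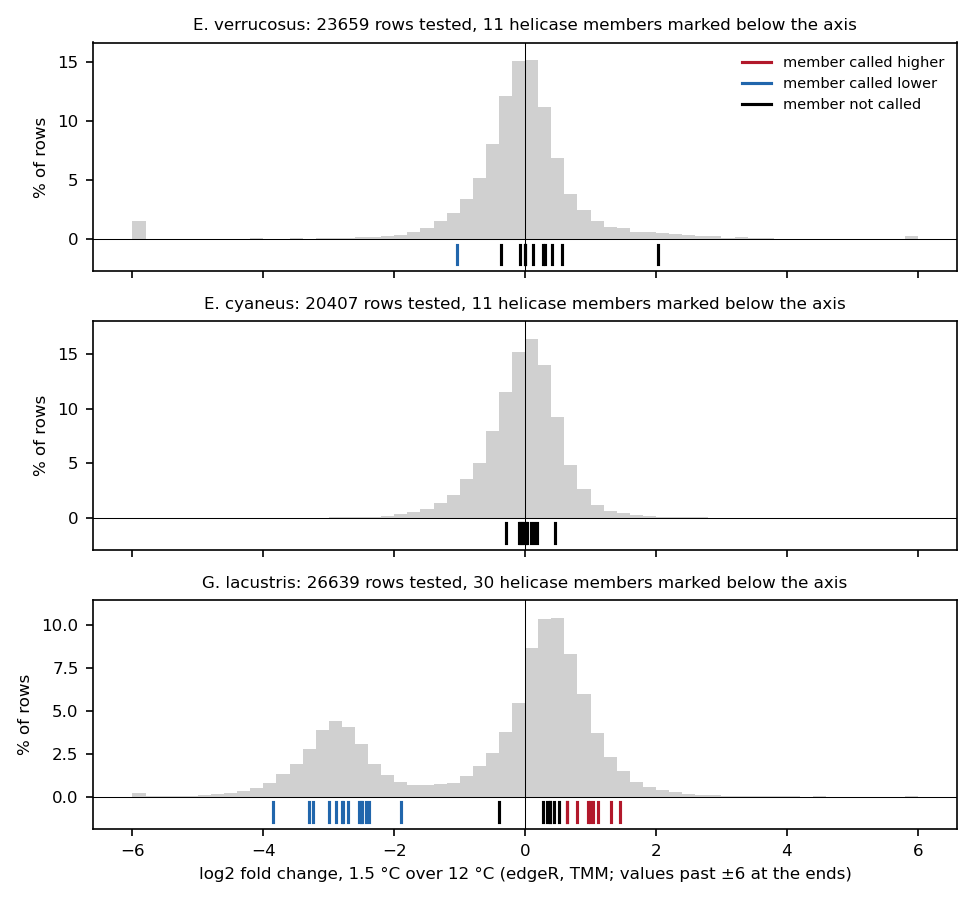
Distribution of log2 fold changes (1.5 °C over 12 °C, x axis) over all rows tested in each species (y axis, percent of rows), with the helicase members as marks below the axis. In G. lacustris the rows form 2 humps and the members lie in both, 14 below −1.5 and 16 above it. In the Eulimnogammarus species the rows form a single hump around 0. Their members lie between −1.04 (DDX42) and 2.02 (DDX21) in E. verrucosus and between −0.29 and 0.45 in E. cyaneus.

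The position of the G. lacustris humps relative to 0 depends on the scaling. The library factors behind the authors' deposited table shift its fold changes up by a median of 0.65 relative to TMM, against shifts of −0.03 in E. verrucosus and −0.11 in E. cyaneus. Under those factors 27 of 30 members of G. lacustris were called, 13 higher and 14 lower, where 66.2% of all rows were called, 38.3% higher and 27.9% lower. Higher calls were thus 57.9% of all calls, against 24.7% under TMM. The rows above −1.5 had a median of 0.40 under TMM, and the 9 members called higher lay between 0.64 and 1.45. They were picked by a call for lying above 0, so their place above that median is no separate result. Each of the 23 called members kept its direction under both scalings. The deposited values are also scaled by transcript length, and the edgeR counts are not, which matters where a name sums transcripts of unlike length. As TPM, DHX8 averaged 3.77 at 1.5 °C and 6.86 at 12 °C, DHX33 1.21 and 3.41, and DDX43 0.924 and 2.95. The part of length in the gaps between edgeR and deposited values of these genes, given below, was not tested.

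Spliceosomal helicases of G. lacustris moved in both directions. Of 10 tested, 3 rose, 5 fell and 2 were not called, where 39.6% of all rows and 55.2% of named rows were called. SNRNP200, which unwinds the paired U4 and U6 snRNAs to activate the spliceosome, had 9.69, 9.76, 6.85 and 8.27 CPM at 1.5 °C, against 83.3, 37.9, 55.7 and 25.3 CPM at 12 °C (log2 fold change of −2.54 with SE 0.37, edgeR adjusted p = 0.000469). DDX23, which exchanges U1 for U6 at the start of the intron, had 4.75, 6.58, 3.94 and 3.03 CPM at 1.5 °C, against 48.3, 24.6, 37.7 and 17.6 CPM at 12 °C (−2.80, SE 0.39, edgeR adjusted p = 0.000394). DDX46, which helps the U2 particle onto the branch point, had 4.37, 5.81, 3.25 and 3.61 CPM at 1.5 °C, against 37.5, 17.1, 22.6 and 12.1 CPM at 12 °C (−2.38, SE 0.39, edgeR adjusted p = 0.000732). In all 3 genes every pool at 1.5 °C lay below every pool at 12 °C, and the 12 °C pools spread over a factor of more than 2 with pool 1 highest and pool 4 lowest.

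AQR, a helicase of the intron-binding complex, fell with them, at 2.47, 2.85, 1.16 and 1.40 CPM at 1.5 °C, against 21.1, 8.75, 15.3 and 7.17 CPM at 12 °C (log2 fold change of −2.71 with SE 0.46, edgeR adjusted p = 0.000851). DHX8, which releases the finished mRNA from the spliceosome, had 10.4, 7.79, 7.08 and 6.40 CPM at 1.5 °C, against 45.1, 25.3, 28.9 and 18.9 CPM at 12 °C (−1.89, SE 0.32, edgeR adjusted p = 0.000848). DHX8 is the only called member whose fold change in the authors' deposited table did not pass, at −0.19 (SE 0.25, adjusted p = 0.497). DHX8 has a long transcript that fell and a short one that was not called, as described below.

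The 3 spliceosomal members that rose were DDX5, DHX35 and DHX38. DDX5, a splicing factor and transcriptional co-regulator, had 25.0, 19.1, 21.1 and 27.2 CPM at 1.5 °C, against 3.29, 9.53, 9.05 and 11.8 CPM at 12 °C (log2 fold change of 1.45 with SE 0.36, edgeR adjusted p = 0.00772). DHX38, which remodels the spliceosome for the second catalytic step, had 22.8, 21.7, 22.3 and 27.2 CPM at 1.5 °C, against 10.3, 14.1, 14.1 and 15.7 CPM at 12 °C (0.79, SE 0.23, edgeR adjusted p = 0.0179). The groups of both genes were apart, and in both the 12 °C pool 1, highest in the genes that fell, was the lowest of all pools.

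DHX35, found in the catalytically active spliceosome, had 2.85, 2.41, 2.78 and 2.56 CPM at 1.5 °C, against 0.659, 1.77, 1.58 and 0.860 CPM at 12 °C (log2 fold change of 1.11 with SE 0.39, edgeR adjusted p = 0.0425). It rests on 5 to 30 counts per library. Its call was lost without 1.5 °C pool 1, 3 or 4 (edgeR adjusted p = 0.0529, 0.126 and 0.0613) and without 12 °C pool 3 or 4 (0.0608 and 0.0826), and that of DHX38 without 1.5 °C pool 3 (0.0666).

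DDX17, a close relative of DDX5 and the first of the joined members of G. lacustris by TPM over all libraries, was not called. It had 99.6, 107, 114 and 106 CPM at 1.5 °C, against 84.0, 93.3, 104 and 73.7 CPM at 12 °C (log2 fold change of 0.27 with SE 0.19, edgeR adjusted p = 0.308), and its groups overlapped. It was called higher in the authors' deposited table (0.91, SE 0.20, adjusted p = 1.86e-05) and with the authors' library factors in edgeR (0.92, edgeR adjusted p = 0.00423). DDX41, which acts late in splicing and in the sensing of nucleic acids, had 22.5, 19.7, 20.0 and 33.7 CPM at 1.5 °C, against 34.1, 29.2, 36.4 and 26.6 CPM at 12 °C (−0.40, SE 0.25, edgeR adjusted p = 0.244). DDX5 and DDX17 are close paralogs in mammals, where reads can be shared between such genes, and sharing was not measured here. DDX39A, a helicase of spliceosome assembly and mRNA export that could not be tied to transcripts, stood at 1.21 in the authors' deposited table (log2, SE 0.26, adjusted p = 1.16e-05).

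All 10 tested helicases of ribosome biogenesis were called in G. lacustris, 5 higher and 5 lower, where 39.6% of all rows and 55.2% of named rows were called. DDX54, which acts on the large ribosomal subunit, had 50.1, 47.2, 44.4 and 53.6 CPM at 1.5 °C, against 29.2, 16.5, 22.9 and 26.2 CPM at 12 °C (log2 fold change of 1.04 with SE 0.23, edgeR adjusted p = 0.0041). DDX47, which acts on the small subunit, had 25.8, 22.0, 37 and 30.6 CPM at 1.5 °C, against 15.3, 12.2, 7.58 and 11.4 CPM at 12 °C (1.31, SE 0.28, edgeR adjusted p = 0.00328). DDX51, another factor of the large subunit, had 19.9, 18.2, 25.1 and 25.5 CPM at 1.5 °C, against 9.22, 11.0, 13.5 and 12.0 CPM at 12 °C (0.96, SE 0.24, edgeR adjusted p = 0.00833). In these 3 genes the lowest pool at 1.5 °C exceeded the highest at 12 °C.

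The other 2 that rose passed by a smaller margin. DDX27, a large-subunit factor, had 46.9, 47.4, 60.1 and 46.3 CPM at 1.5 °C, against 38.1, 26.8, 35.2 and 28.8 CPM at 12 °C (log2 fold change of 0.64 with SE 0.22, edgeR adjusted p = 0.0363). DDX52, a small-subunit factor, had 38.9, 43.8, 60.6 and 58.9 CPM at 1.5 °C, against 38.2, 30.0, 29.7 and 31.2 CPM at 12 °C (0.65, SE 0.23, edgeR adjusted p = 0.0442). Neither gene's groups overlapped, but the lowest cold and highest warm values of DDX52 differed by less than 1 CPM. The call of DDX27 was lost without 1.5 °C pool 3 (edgeR adjusted p = 0.122), 12 °C pool 3 (0.0628) or 12 °C pool 4 (0.0563), and that of DDX52 without 1.5 °C pool 3 (0.141), 1.5 °C pool 4 (0.0764), 12 °C pool 3 (0.114) or 12 °C pool 4 (0.0558).

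The 5 ribosome biogenesis members that fell were DDX21, DDX24, DDX10, DHX33 and DHX37. DDX21, a nucleolar helicase of rRNA synthesis and processing, was the most abundant of them, with 15.6, 18.0, 11.8 and 15.0 CPM at 1.5 °C, against 147, 54.5, 84.8 and 40.8 CPM at 12 °C (log2 fold change of −2.44 with SE 0.39, edgeR adjusted p = 0.000687). DDX24, a large-subunit factor, had 1.71, 4.17, 1.51 and 1.98 CPM at 1.5 °C, against 33.6, 13.2, 18.9 and 9.56 CPM at 12 °C (−3.00, SE 0.49, edgeR adjusted p = 0.000739). DDX10, a small-subunit factor, had 1.52, 1.64, 1.39 and 2.10 CPM at 1.5 °C, against 13.6, 7.64, 11.0 and 5.35 CPM at 12 °C (−2.49, SE 0.38, edgeR adjusted p = 0.000558). Every 12 °C pool of these genes exceeded every 1.5 °C pool, again with pool 1 highest.

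DHX33, which takes part in rRNA transcription, had 1.71, 1.75, 1.16 and 1.98 CPM at 1.5 °C, against 14.2, 7.42, 9.39 and 6.98 CPM at 12 °C (log2 fold change of −2.51 with SE 0.36, edgeR adjusted p = 0.000448), while the authors' deposited table gave −0.84 (SE 0.34, adjusted p = 0.024). DHX37, which frees the U3 snoRNA from the pre-ribosome, was close to absent in the cold, at 0.0950, 0.329, 0.116 and 0 CPM at 1.5 °C, against 3.43, 1.99, 1.70 and 1.53 CPM at 12 °C (−3.85, SE 0.63, edgeR adjusted p = 0.000752). DHX37 rests on 5 counts over the 1.5 °C pools and 75 over the 12 °C pools, on a transcript of 765 bases. DDX18 and DDX55, both large-subunit factors that could not be tied to transcripts, stood, in the authors' deposited table, at 1.19 (log2, SE 0.18, adjusted p = 3.76e-10) and 1.58 (log2, SE 0.29, adjusted p = 3.04e-07).

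Of the 2 members of nuclear export and translation in G. lacustris, the translation helicase fell. DDX3X, which opens structured leaders of mRNAs for the scanning ribosome, had 2.56, 4.06, 2.67 and 3.84 CPM at 1.5 °C, against 38.3, 20.6, 19.6 and 12.2 CPM at 12 °C (log2 fold change of −2.78 with SE 0.39, edgeR adjusted p = 0.000414). DDX25, an export helicase of the mouse testis, had 14.7, 11.8, 15.2 and 13.9 CPM at 1.5 °C, against 6.45, 11.7, 12.7 and 13.2 CPM at 12 °C (0.33, SE 0.28, edgeR adjusted p = 0.387), and its groups overlapped. In the authors' deposited table DDX25 passed, at 0.93 (SE 0.30, adjusted p = 0.0049).

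Among the decay and surveillance helicases of G. lacustris, 1 of 4 tested fell, where 29.8% of all rows and 45.6% of named rows were called lower. DDX6, which activates decapping and represses translation in P-bodies, had 11.3, 17.5, 8.82 and 6.64 CPM at 1.5 °C, against 197, 79.2, 82.2 and 61.1 CPM at 12 °C (log2 fold change of −3.24 with SE 0.45, edgeR adjusted p = 0.000398). The 12 °C pool 1 stood far above the other 3 pools. Without it the log2 fold change was −2.63 (edgeR adjusted p = 0.000586).

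SKIV2L2, the helicase that feeds RNA to the nuclear exosome, had 56.8, 56.1, 68.3 and 62.4 CPM at 1.5 °C, against 41.1, 38.8, 47.5 and 42.4 CPM at 12 °C. Its groups were apart, but the log2 fold change of 0.52 (SE 0.19, edgeR adjusted p = 0.0537) did not pass. It passed without 1.5 °C pool 1 (0.75, edgeR adjusted p = 0.0291), 1.5 °C pool 2 (0.72, 0.0361) or 12 °C pool 1 (0.60, 0.0205), and in the authors' deposited table (1.01, SE 0.19, adjusted p = 6.23e-07). DHX34, which acts in nonsense-mediated decay, had 8.26, 4.83, 8.01 and 8.50 CPM at 1.5 °C, against 6.98, 6.76, 3.51 and 5.45 CPM at 12 °C (0.38, SE 0.33, edgeR adjusted p = 0.396). It was called higher in the authors' deposited table (1.04, SE 0.32, adjusted p = 0.00295) and with the authors' library factors in edgeR (1.04, edgeR adjusted p = 0.019). DHX36, which resolves G-quadruplexes, had 2.09, 2.30, 4.06 and 5.36 CPM at 1.5 °C, against 5.80, 2.55, 0.905 and 1.43 CPM at 12 °C (0.38, SE 0.57, edgeR adjusted p = 0.638). DHX34 and DHX36 both had overlapping groups. UPF1, the core helicase of nonsense-mediated decay, could not be tied to transcripts and stood at 0.63 in the authors' deposited table (log2, SE 0.17, adjusted p = 0.000662).

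In the germ line group of G. lacustris, DDX43 fell and DDX4 was not called. DDX4, the vasa helicase that marks germ cells, had 1.14, 4.83, 4.29 and 8.50 CPM at 1.5 °C, against 6.19, 1.66, 2.04 and 3.92 CPM at 12 °C (log2 fold change of 0.44 with SE 0.59, edgeR adjusted p = 0.595), a spread of more than 3-fold within each group. DDX43, a helicase of the mammalian germ line, had 1.23, 0.768, 0.464 and 1.16 CPM at 1.5 °C, against 12.3, 4.54, 6.79 and 4.01 CPM at 12 °C (−2.90, SE 0.49, edgeR adjusted p = 0.000883), while the authors' deposited table gave −1.13 (SE 0.49, adjusted p = 0.0363). Of 10 germ line marker names in the table, DDX4 included, 6 were tested, 3 fell (MAEL, piwil1 and PIWIL1) and 3 were not called. Of all rows 29.8% were called lower, and of named rows 45.6%. The authors' deposited table called 2 of the 10 lower (MAEL and piwil1) and 3 higher (PIWIL2 at 1.05, TDRD7 at 0.98 and TDRD9 at 1.11). Of its 4993 tested entries 33.8% were called lower and 25.1% higher. The summed level of the joined markers ran from 60.6 to 74.6 CPM at 1.5 °C and from 61.8 to 91.9 CPM at 12 °C. Their part in the fall of DDX43 was not tested.

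DDX60, a cofactor of antiviral RNA sensors in mammals, fell to 0, 0.329, 0.348 and 0.233 CPM at 1.5 °C, against 3.82, 1.77, 2.49 and 1.15 CPM at 12 °C (log2 fold change of −3.30 with SE 0.66, edgeR adjusted p = 0.00214), on 8 counts over the 1.5 °C pools and 79 over the 12 °C pools. DDX20, the helicase of the SMN complex that assembles snRNPs, rose, with 23.6, 19.8, 24.9 and 21.3 CPM at 1.5 °C, against 10.8, 11.4, 10.6 and 12.4 CPM at 12 °C (0.98, SE 0.22, edgeR adjusted p = 0.00376). Every pool of DDX20 at 1.5 °C lay above every pool at 12 °C. DHX9 and DDX42 did not pass the filter. DHX9, which resolves RNA and DNA hybrids, had 0.380, 0.439, 0.464 and 0 CPM at 1.5 °C, against 3.03, 1.11, 1.47 and 0.287 CPM at 12 °C. DDX42, which binds the U2 particle, had 0.380, 0, 0.116 and 0.116 CPM at 1.5 °C, against 1.58, 1.22, 0.905 and 0.860 CPM at 12 °C. In the authors' deposited table both were lower, DHX9 at −2.20 (SE 0.86, adjusted p = 0.0204) and DDX42 at −2.17 (SE 0.88, adjusted p = 0.0266). DHX9 was not called by edgeR with no filter on low counts (−1.87, edgeR adjusted p = 0.0782) or by DESeq2 (−2.16).

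Over all 40 entries of G. lacustris the authors' deposited table called 17 higher and 15 lower, where 58.9% of its 4993 tested entries were called, 25.1% higher and 33.8% lower. Of the 23 members called by edgeR, 22 were called there too, DHX8 being the exception. The groups did not overlap in 24 of 30 members, where 43.6% of all rows tested did not.

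**Figure D3:**
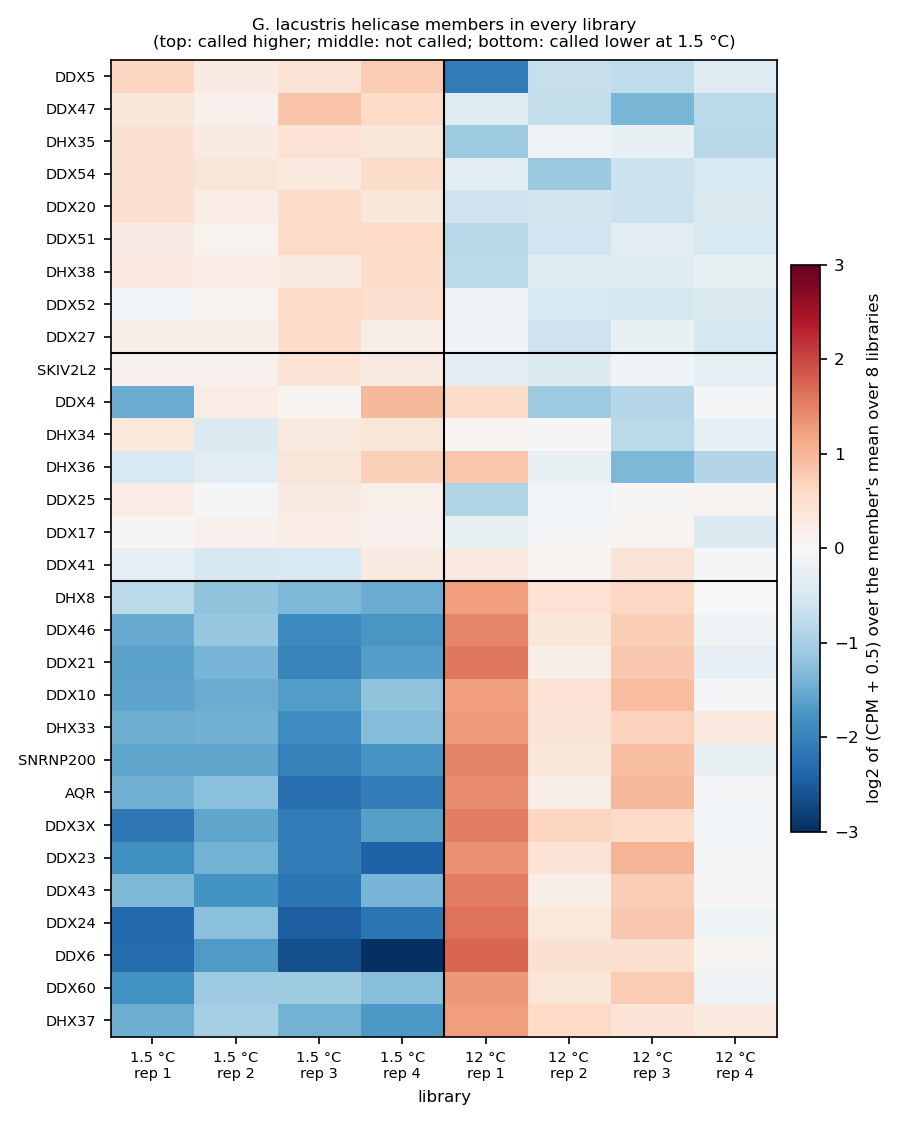
Level of the 30 tested helicase members of G. lacustris (y axis) in each of the 8 libraries (x axis, 1.5 °C pools left of 12 °C pools), as log2 of CPM plus 0.5 over the member's mean. The 9 members called higher stand at the top and the 14 called lower at the bottom. In the lower block pool 1 has the highest and pool 4 the lowest values of the 12 °C pools.

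The 14 members that fell shared a profile over the 12 °C pools that the choice of members did not use. Pool 1 was the highest and pool 4 the lowest in all 14, with a ratio of pool 1 to pool 4 between 2.04 and 3.61 (median 3.07). Of all 7941 rows called lower in G. lacustris, pool 1 was the highest in 87.1% and pool 4 the lowest in 68.7%. Of the 9 members that rose, pool 1 was the highest in 4 and pool 4 the lowest in 0. Rows called lower took 4.77 to 5.49% of all counts in 1.5 °C libraries and 15.0 to 22.8% in 12 °C libraries, the highest share being that of pool 1. Without 12 °C pool 1 all 14 were still called, with log2 fold changes between −3.46 and −1.51, and so were all 9 that rose. The part of this library in the fold changes was not tested beyond leaving it out. Nor was it tested whether the transcripts of the lower hump, these 14 members among them, come from G. lacustris itself, as no sequence was used here.

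Several names of G. lacustris stood for more than 1 transcript, and transcripts under 1 name could go opposite ways. The 35 joined members had 54 transcripts, of which 40 were tested, 11 rose and 20 fell. Over all transcripts of the same fit, 10824 of 27194 were called, 2639 of them higher. In 10 names 2 transcripts were tested, and in DDX27 and SKIV2L2 the transcripts were called in opposite directions. The longer DDX27 transcript (2361 bases) had 45.1, 45.6, 58.5 and 44.0 CPM at 1.5 °C, against 25.0, 20.4, 24.6 and 22.5 CPM at 12 °C (log2 fold change of 1.06 with SE 0.21, edgeR adjusted p = 0.002). The shorter (2149 bases) had 1.80, 1.75, 1.62 and 2.33 CPM at 1.5 °C, against 13.0, 6.42, 10.6 and 6.31 CPM at 12 °C (−2.27, SE 0.36, edgeR adjusted p = 0.000678). The sum of both, described above as DDX27, therefore rose by less than its longer transcript did.

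SKIV2L2 showed the same split. Its transcript of 3392 bases had 55.4, 54.7, 67.3 and 61.8 CPM at 1.5 °C, against 26.7, 33.8, 38.3 and 38.2 CPM at 12 °C (log2 fold change of 0.80 with SE 0.21, edgeR adjusted p = 0.0104), and was called although the sum was not. Its transcript of 2052 bases had 1.42, 1.43, 1.04 and 0.582 CPM at 1.5 °C, against 14.4, 4.98, 9.28 and 4.20 CPM at 12 °C (−2.85, SE 0.50, edgeR adjusted p = 0.00104). In DDX17, DDX41 and DHX8, 1 transcript fell and the other was not called. The transcript that fell was the shorter one in DDX17 (2099 against 2450 bases; −2.48, edgeR adjusted p = 0.00155) and the longer one in DDX41 (2168 against 2147 bases; −2.26, edgeR adjusted p = 0.00065) and in DHX8 (3920 against 743 bases; −2.31, edgeR adjusted p = 0.000567). Their partners lay at 0.37, 0.33 and 0.67.

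In each of these 5 names the transcript that fell had its highest 12 °C level in pool 1. Both transcripts moved together in the other 5 names with 2 tested transcripts. Those of DDX47 rose (1.30 and 1.39), those of DDX46 (−2.40 and −2.19) and SNRNP200 (−2.60 and −2.34) fell, and those of DHX38 lay at 0.80 and 0.77, of which only the first passed, while those of DDX25 lay at 0.37 and 0.26 and neither passed. Near-identical transcripts can share reads, so a value for 1 transcript of a name is less certain than the sum.

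**Figure D4:**
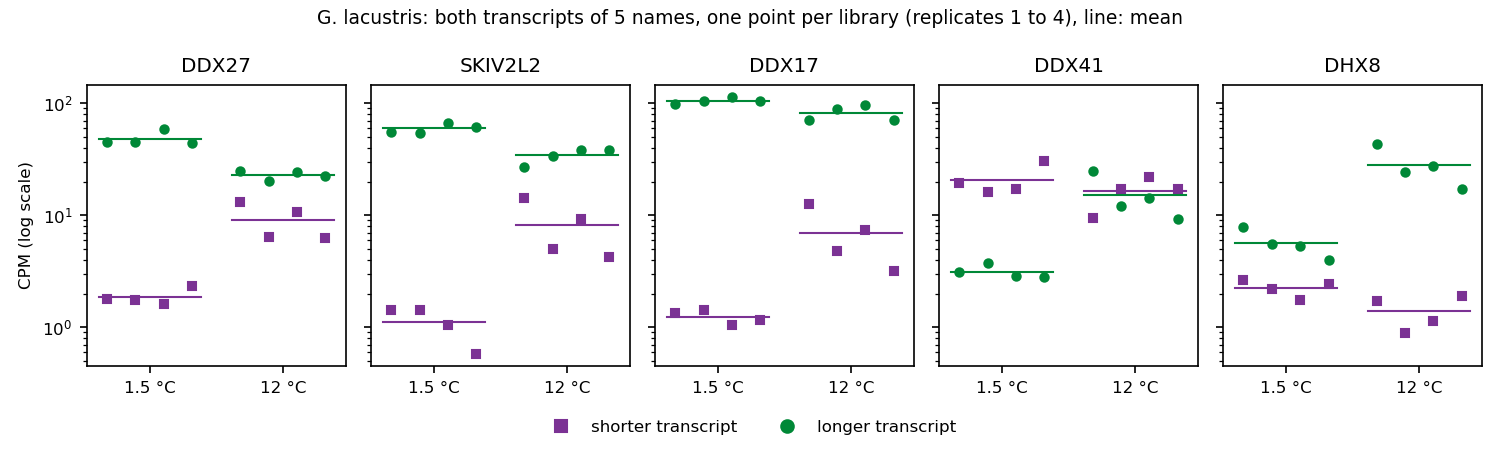
Level in CPM (y axis, log scale) of both transcripts of DDX27, SKIV2L2, DDX17, DDX41 and DHX8 in G. lacustris, with a point per library, 1.5 °C left of 12 °C, and a line at each mean. In each panel 1 transcript is several-fold lower at 1.5 °C than at 12 °C, while the other is higher or overlaps.

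In E. verrucosus the member that fell was DDX42. It had 10.7, 12.3, 12.9 and 11.0 CPM at 1.5 °C, against 24.0, 25.1, 24.3 and 22.7 CPM at 12 °C (log2 fold change of −1.04 with SE 0.19, edgeR adjusted p = 0.0174). The groups were far apart for their spread, with 11.7 ± 1.05 CPM at 1.5 °C, against 24.0 ± 0.966 CPM at 12 °C (SD, n = 4 each). The call held in 2 of 8 fits that left out a library, without 1.5 °C pool 4 or 12 °C pool 1. It was lost without 1.5 °C pool 1, 2 or 3 (edgeR adjusted p = 0.0792, 0.0563 and 0.0534) or 12 °C pool 2, 3 or 4 (0.0636, 0.0507 and 0.0564). The authors' deposited table gave −1.06 (SE 0.18, adjusted p = 1.13e-06).

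That table called 2 of 20 members of E. verrucosus, where 4.69% of its 3217 tested entries were called, and the other was DHX9. DHX9 sat on a transcript of 277 bases with 10, 4, 10 and 7 counts at 1.5 °C, against 0, 1, 0 and 0 counts at 12 °C. These counts give a ratio of 26.1 per effective library size, with an exact 95% interval of 4.35 to 1064 that covers counting error only. In the authors' deposited table the log2 fold change was 4.44 (SE 1.30, adjusted p = 0.0194), and edgeR with no filter on low counts gave an adjusted p of 0.0728.

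The other 10 tested members of E. verrucosus were not called. The most abundant joined member there was DDX6, with 174, 211, 198 and 201 CPM at 1.5 °C, against 163, 146, 175 and 164 CPM at 12 °C (log2 fold change of 0.27 with SE 0.21, edgeR adjusted p = 0.743). DDX31, a large-subunit factor, had 36.0, 40.4, 51.1 and 58.0 CPM at 1.5 °C, against 33.1, 36.7, 26.3 and 29.8 CPM at 12 °C (0.56, SE 0.24, edgeR adjusted p = 0.402). DDX21 had 3.73, 1.99, 3.82 and 0.248 CPM at 1.5 °C, against 0.262, 0.526, 1.59 and 0.0542 CPM at 12 °C (2.02, SE 0.96, edgeR adjusted p = 0.484). All 3 had overlapping groups, and pool 4 of DDX21 was far below the other 1.5 °C pools. DDX52, with 37.5 ± 9.77 CPM at 1.5 °C, against 37.4 ± 7.55 CPM at 12 °C, and DHX34, at 16.8 ± 0.815 and 16.8 ± 2.35 CPM, had log2 fold changes within 0.01 of 0 with SEs of 0.26 and 0.20. The remaining 5 (MOV10, DDX10, DDX47, DHX33 and DHX35) lay between −0.37 and 0.42.

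In E. cyaneus the 11 tested members lay between −0.29 and 0.45. DHX35 was the highest, with 3.32, 5.04, 4.59 and 5.49 CPM at 1.5 °C, against 3.44, 3.66, 2.86 and 3.54 CPM at 12 °C (log2 fold change of 0.45 with SE 0.25, edgeR adjusted p = 0.442). The large-subunit factor DDX55 was the lowest, with 42.2, 37.6, 45.8 and 48.1 CPM at 1.5 °C, against 74.7, 53.1, 46.1 and 39.1 CPM at 12 °C (−0.29, SE 0.23, edgeR adjusted p = 0.593). DDX27, the most abundant joined member by TPM, had 70.7, 63.6, 58.3 and 72.7 CPM at 1.5 °C, against 84.0, 54.8, 59.7 and 52.2 CPM at 12 °C (0.08, SE 0.21, edgeR adjusted p = 0.89). The groups overlapped in all 11, where those of 10.2% of all rows did not, and the SEs were between 0.20 and 0.44, which is larger than the differences of all but DDX55 and DHX35.

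Other abundant members of E. cyaneus differed between temperatures by less than the SD of the 1.5 °C pools. DHX15, which takes spent spliceosomes apart, had 43.4 ± 8.77 CPM at 1.5 °C and 44.4 ± 9.01 CPM at 12 °C, DDX1, a partner of the tRNA ligase, had 39.0 ± 4.30 and 41.6 ± 7.22 CPM, and SKIV2L2 had 16.3 ± 4.29 and 16.3 ± 5.18 CPM (SD, n = 4 each). DDX4 had 4.24, 4.55, 4.66 and 3.37 CPM at 1.5 °C, against 8.06, 5.15, 3.40 and 1.45 CPM at 12 °C, so that the 12 °C pools bracket the 1.5 °C pools. DDX11, a DNA helicase of sister chromatid cohesion that the symbol pattern brings in, had 14.4 ± 2.47 CPM at 1.5 °C and 12.7 ± 1.26 CPM at 12 °C. The authors' deposited table called 1 of 22 members of E. cyaneus, where 6.27% of its 2458 tested entries were called. This was SNRNP200, at 0.61 in the authors' deposited table (log2, SE 0.15, adjusted p = 0.00182), and it could not be tied to transcripts.

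Per unit of transcript length, the joined members together held 145 ± 25.1 TPM at 1.5 °C and 103 ± 19.1 TPM at 12 °C for E. verrucosus, 146 ± 12.5 and 121 ± 6.86 TPM in E. cyaneus, and 196 ± 18.2 and 267 ± 63.7 TPM in G. lacustris (SD, n = 4 each). The values of E. cyaneus did not overlap by a narrow margin, with the lowest 1.5 °C library at 128.6 and the highest 12 °C library at 128.2 TPM, and those of the other species overlapped. Different members are joined in each species, so these sums are not compared between species. Within G. lacustris the 12 joined splicing members held 71.3 ± 3.84 TPM at 1.5 °C and 88.0 ± 14.2 TPM at 12 °C, the 11 ribosome biogenesis members 76.8 ± 9.72 and 84.3 ± 21.0 TPM, and the 4 decay members 28.2 ± 3.93 and 62.8 ± 26.0 TPM. At 12 °C the decay sum is mostly DDX6, which averaged 6.68 TPM at 1.5 °C and 46.1 TPM at 12 °C. At 1.5 °C its largest part was SKIV2L2, with 13.5 TPM, against 10.5 TPM at 12 °C.

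Among joined members the order of abundance differed between species. By mean TPM over 8 libraries, E. verrucosus was led by DDX6 (56.4 TPM), DDX52 (15.8) and DDX31 (11.6), E. cyaneus by DDX27 (26.8 TPM), DDX55 (19.7) and DDX47 (17.1), and G. lacustris by DDX17 (31.1 TPM), DDX6 (26.4) and DDX21 (17.5). In G. lacustris DDX6 and DDX21 had 6.68 and 5.58 TPM at 1.5 °C, against 46.1 and 29.4 TPM at 12 °C, and DDX17 had 33.9 TPM at 1.5 °C, against 28.3 TPM at 12 °C, so DDX17 led only at 1.5 °C. The 21 members that could not be tied to transcripts have no TPM and no place in this order. Among them are DDX39A and DDX18 of G. lacustris, whose mean normalised counts in the authors' deposited table, 5312 and 2498, exceed the 927 of DDX17. In E. verrucosus those of DDX17 (3391) and DDX18 (2434) exceed the 2302 of DDX6. In E. cyaneus those of DDX17 (7039), DDX6 (2828) and DDX24 (1309) exceed the 744 of DDX27.

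Each species has its own assembly, and a shared symbol is not shown to mark the same ancestral gene. Of the 15 names in all 3 of the authors' deposited tables, DDX17, DDX39A and DHX35 had the same sign in all 3, and it was positive. DDX17 had log2 fold changes of 0.47 (E. verrucosus), 0.01 (E. cyaneus) and 0.91 (G. lacustris) in the authors' deposited tables, DDX39A 0.55, 1.01 and 1.21, and DHX35 0.40, 0.36 and 1.37. DDX24 had 0.22, −0.17 and −2.28, DDX3X −0.25, 1.64 and −2.08, and SNRNP200 0.30, 0.61 and −1.78 in the same deposited tables. Of the last 3 genes, G. lacustris passed the threshold in each and SNRNP200 also passed in E. cyaneus.

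The difference between species was tested as an interaction of species and temperature over names joined in both. Between E. verrucosus and E. cyaneus 0 of 9 members differed by edgeR, with 1 at an unadjusted p under 0.05 (DDX49) and 0 by limma-voom, where 0.98% of 1225 names differed. Between E. verrucosus and G. lacustris 6 of 11 members differed, where 39.4% of 1509 names did. Between E. cyaneus and G. lacustris 6 of 11 differed, where 43.4% of 1450 names did. Of those called, 3 of the first 6 and 1 of the other 6 had passed the count filter in both species, and the rest entered through 1 species, so the counts are not read against these shares. Without 1.5 °C pool 1 of E. cyaneus the last count was 3. These 2 comparisons share the G. lacustris libraries.

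Among members that passed the count filter in both species, the test called DDX6, DDX10 and DDX21 for E. verrucosus against G. lacustris. Log2 fold changes were 0.27 in E. verrucosus and −3.24 in G. lacustris for DDX6 (difference 3.51, SE 0.48, edgeR adjusted p = 3.3e-05). They were 0.30 and −2.49 for DDX10 (difference 2.78, SE 0.48, edgeR adjusted p = 0.000214), and 2.02 and −2.44 for DDX21 (difference 4.51, SE 0.90, edgeR adjusted p = 0.00073). For E. cyaneus against G. lacustris it called DDX47, at −0.05 in E. cyaneus and 1.31 in G. lacustris (difference −1.36, SE 0.36, edgeR adjusted p = 0.00416). These 4 kept their calls with the authors' library factors, with differences of 2.75, 2.09, 3.70 and −2.14.

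The other calls rest on a species in which the member did not pass the filter of its own fit. These were DDX23 (difference 5.91, edgeR adjusted p = 0.00265) and DHX8 (4.99, 0.00373), each with 5 counts at 1.5 °C and 0 at 12 °C in E. verrucosus, so that the size of their differences depends on how 0 counts are treated and is no measured fold, and DDX42 (1.69, 0.0263), with 6 counts at 1.5 °C and 40 at 12 °C in G. lacustris. Against E. cyaneus they were DHX33 (3.62, 0.00693), DDX46 (2.30, 0.00853), AQR (3.12, 0.012), DDX43 (2.21, 0.0315) and DDX52 (−2.05, 0.0452), each on at most 40 counts in that species. With the authors' library factors DDX42 (edgeR adjusted p = 0.151), DDX46 (0.0515) and DDX43 (0.131) were lost. The same factors added DDX47 (edgeR adjusted p = 0.0111), DDX52 (0.0111) and DHX34 (0.0309) for E. verrucosus against G. lacustris, and DDX27 (0.0017), SKIV2L2 (0.00625) and DHX35 (0.0213) for E. cyaneus against G. lacustris. DHX9 was not in the main test against E. verrucosus, but it entered with these factors and also in most fits that left out a library. With DHX9, which was called under these factors, 9 and 7 members differed.

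**Figure D5:**
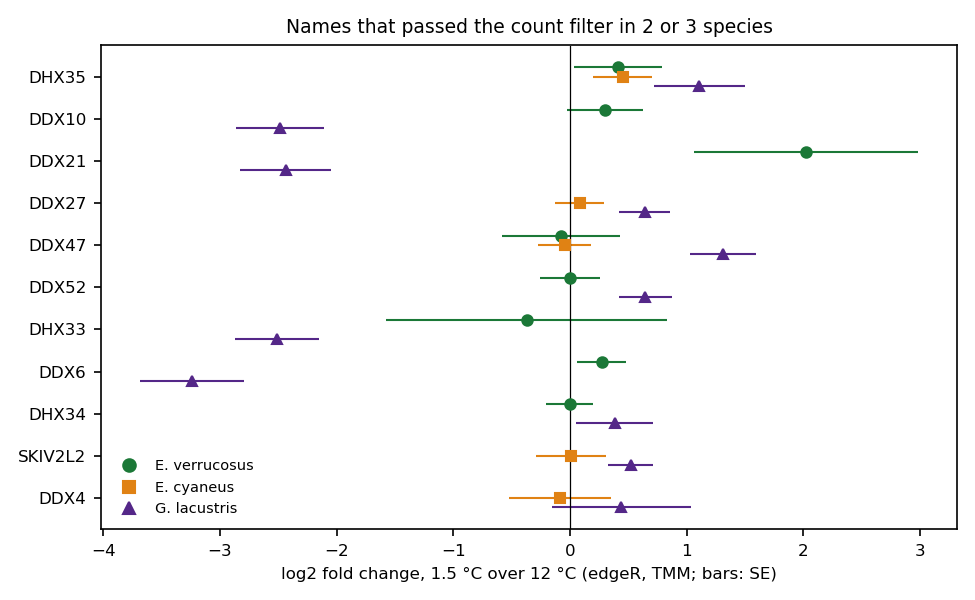
Log2 fold changes (1.5 °C over 12 °C, x axis, bars are SE) from edgeR for helicase names that passed the count filter in 2 or 3 species (y axis), with a marker per species. For DDX6, DDX10 and DDX21 the G. lacustris marker lies between −3.24 and −2.44, while the E. verrucosus marker lies above 0.

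Genes that work with these helicases were described from lists chosen by symbol. In G. lacustris 17 helicase partners were tested, of which 4 rose and 10 fell, where 39.6% of all rows and 55.2% of named rows were called. Their median log2 fold change was −2.36, beside 0.11 over all rows and −0.37 over named rows. Spliceosomal partners stood on both sides: PRPF3 (1.06) and PRPF31 (0.88), of the U4 and U6 particle, rose, while PRPF6 (−3.06) and EFTUD2 (−2.56), of the tri-snRNP and the U5 particle, fell. CNOT1 (−3.26), the scaffold that recruits DDX6, fell, and RBM8A (2.24), of the exon junction complex, rose, while its partner MAGOH (−2.36) fell. PDCD4 (0.56), an inhibitor of the helicase eIF4A, rose.

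Among the cold shock domain and cold-inducible RNA-binding proteins of G. lacustris, YBX1 fell, with 38.1 ± 9.87 CPM at 1.5 °C and 328 ± 186 CPM at 12 °C (log2 fold change −3.10, edgeR adjusted p = 0.000319), as did CARHSP1 (−3.16). Of 5 tested helicases outside the rule, with a median log2 fold change of 0.62, EIF4A2 fell (−1.44, edgeR adjusted p = 0.0299) on a low level of 0.707 ± 0.321 CPM at 1.5 °C and 1.92 ± 0.717 CPM at 12 °C. The other 4 were not called by edgeR, with 2 of them at an unadjusted p under 0.05. In the authors' deposited table all 4 were higher, EIF4A3 at 1.25, HELZ at 1.81, IGHMBP2 at 0.90 and TDRD9 at 1.11. Of the 9 helicases outside the rule tested in that table, EIF4A2 included, 0 were called lower. In E. verrucosus 0 of 18 tested partners, 0 of 1 cold shock gene and 0 of 3 other helicases were called, and in E. cyaneus 0 of 15, 0 of 3 and 0 of 3, by edgeR, with 0 of them at an unadjusted p under 0.05 in either species. In the authors' deposited tables the same lists gave 1 call in E. verrucosus, EIF4G2 (−5.31), and 1 in E. cyaneus, EIF4A1 (3.54), both on a few counts.

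Markers of cell types present in a whole body were found in every species. Muscle markers in G. lacustris summed to between 7253 and 10084 CPM at 1.5 °C and between 9794 and 11827 CPM at 12 °C. Of 4 tested by edgeR 2 fell, where 29.8% of all rows and 45.6% of named rows were called lower. The tested digestive gland marker of G. lacustris was not called. The authors' deposited table called 0 of 8 muscle markers of this species, where 58.9% of its 4993 tested entries were called. It called the digestive gland gene AMY2A higher (0.56) and the nerve gene CHAT lower (−2.55, SE 1.02). CHAT was near the floor and did not pass the count filter, with 0 to 0.329 CPM at 1.5 °C and 0.669 to 1.71 CPM at 12 °C. In E. cyaneus the yolk protein gene Vg rose, with 1414 ± 409 CPM at 1.5 °C and 231 ± 136 CPM at 12 °C (log2 fold change of 2.62, edgeR adjusted p = 0.0287), beside 0 called members and DDX4 levels whose groups overlapped. There edgeR called 0 of 6 muscle markers, with 4 at an unadjusted p under 0.05, where 0.632% of all rows were called. The authors' deposited table called 4 muscle markers lower (Mlc2 at −1.43, sls at −1.19, TNNI1 at −1.04 and Unc-89 at −1.49) and the haemocyte gene Hml higher (1.05). Of its 2458 tested entries 6.27% were called. Muscle markers of E. cyaneus summed to between 6483 and 10387 CPM at 1.5 °C and between 12090 and 31319 CPM at 12 °C, which do not overlap. In E. verrucosus 0 of 7 muscle markers were called by edgeR (1 at an unadjusted p under 0.05), and of its 4 germ line marker names none passed the count filter. The authors' deposited table called sls lower (−1.11) and aub higher (5.13) there, where 4.69% of its 3217 tested entries were called. The part of these markers in the helicase values was not tested.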

How the data were processed

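RNA of whole amphipods was sequenced in 24 libraries, 4 per species and temperature, grouped by the labels. Reads were assembled per species with Trinity, thinned with cd-hit-est, filtered with TransRate and restricted to transcripts with animal matches, per the series' design text. The submitters' processing notes list Salmon 1.1.0 and DESeq2 1.26.0 without settings. Per the file headers, the authors deposited estimated counts and TPM per transcript for each library. The authors' deposited tables hold per gene name, per the file headers, a mean signal of normalised counts, the log2 fold change and its standard error, the Wald score, and p-values before and after adjustment.

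Names were tied to transcripts where the mean of length- and library-scaled counts of 1 or more summed transcripts equalled the deposited mean within a relative 2e-14. The share of names paired was 85.96% in G. lacustris, 88.98% in E. verrucosus and 91.40% in E. cyaneus, while means shifted as decoys gave 0 matches. Estimated counts were rounded, transcripts of a name summed, and other transcripts kept as rows. Each species was fitted alone with edgeR 4.0.16 (R 4.3.3), glmQLFit and glmQLFTest, TMM and filterByExpr (minimum count 10, minimum total 15), with Benjamini-Hochberg adjustment at 0.05. Species differences were an interaction term over names joined in both. The fits were tested on simulated data in which as many rows were raised as lowered. That setting does not cover the unequal directions of G. lacustris. Alternatives were other scalings, filters, a replicate block, DESeq2 1.42.0, limma-voom (limma 3.58.1), single transcripts, and each library left out; the authors' library factors were added after the data were seen. Number of series columns not used: 0.

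Members and lists were chosen with earlier results of these data known, and not every gene of a list is reported here. Named with values were members called by edgeR or the deposited table, the 3 other joined members with the smallest p per species, the most abundant of each step, and names in all 3 tables. No replicate pair was identical, and the chi-square per degree of freedom between replicates was at least 36.8. Pools are separate samples per the labels, so the p-values set the temperature difference against the spread between pools.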

Additional observations from a re-analysis of the deposited data

Results flagged for a closer look

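Of 94 groups of 4 pools examined for a value far from the others, 3 held such a value, where chance gives about 1 in 20. In G. lacustris DDX6 had 197 CPM in 12 °C pool 1, while the other 12 °C pools lay between 61.1 and 82.2 CPM. DHX34 of G. lacustris had 4.83 CPM in 1.5 °C pool 2, with the others between 8.01 and 8.50 CPM. DDX27 of G. lacustris had 60.1 CPM in 1.5 °C pool 3, with the others between 46.3 and 47.4 CPM, and its call was lost without that pool (edgeR adjusted p = 0.122).

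The cold response differed between E. verrucosus and G. lacustris in the edgeR interaction test for DDX6 by 3.51 on the log2 scale, DDX10 by 2.78, DDX21 by 4.51, DDX23 by 5.91, DHX8 by 4.99 and DDX42 by 1.69, each being the fold change in E. verrucosus minus that in G. lacustris. Between E. cyaneus and G. lacustris it differed for DDX47 by −1.36, DHX33 by 3.62, DDX46 by 2.30, AQR by 3.12, DDX43 by 2.21 and DDX52 by −2.05. DDX23, DHX8, DDX42, DHX33, DDX46, AQR, DDX43 and DDX52 each had few counts in 1 of the 2 species, and DDX23 and DHX8 had 0 at 12 °C in E. verrucosus, so that their differences are no measured folds.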

How the results depend on the processing

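Of 204 alternative values for counts and medians 162 kept within their limit and 42 moved, and of 754 for single members 673 kept direction and side of the threshold, 15 gained and 31 lost a call, and 35 turned direction, all of them members that were not called. The cause was not tested. All rows called numbered 791 in E. verrucosus against 285 at a minimum count of 50, 2203 by DESeq2 and 151 in the authors' deposited table; 129 in E. cyaneus against 874 by DESeq2 and 39 to 197 with a library left out; and 10545 in G. lacustris against 17166 with no filter, 3800 at a minimum count of 50, 17642 with the authors' factors, 16013 by DESeq2 and 2943 in the authors' deposited table, which holds fewer entries. Members called in E. verrucosus were 0 with no filter, 2 by DESeq2, 2 in the authors' deposited table and 0 to 1 with a library left out, and in E. cyaneus 1 in the authors' deposited table. The median of members in E. verrucosus was 0.35 with no filter, 0.40 by DESeq2, 0.34 in the authors' deposited table and −0.0252 to 0.27 with a library left out; in E. cyaneus −0.12 with the authors' factors and −0.14 to 0.19 with a library left out; in G. lacustris −1.57 with no filter, 0.59 with the authors' factors, −1.84 by DESeq2 and −0.52 to 0.0388 with a library left out. Members differing between E. cyaneus and G. lacustris numbered 3 to 6 with a library left out.

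Called members that lost their call were DDX42 of E. verrucosus with no filter (edgeR adjusted p = 0.0742), and in G. lacustris DDX27 (0.065), DDX52 (0.0922) and DHX38 (0.055) at a minimum count of 50, besides the losses given with each member in the report and those under the block below. The turned directions were DDX52 of E. verrucosus (−0.0101 with the authors' factors, −0.00637 in the deposited table, −0.19 to 0.15 with a library left out), DDX47 (−0.32 to 0.53) and DHX33 (−1.22 to 0.22) there, and in E. cyaneus SKIV2L2 (−0.0148 with DESeq2 size factors and −0.0115 by DESeq2, −0.12 with the authors' factors, −0.0754 in the deposited table, −0.19 to 0.16), DDX27 (−0.0423 with the authors' factors, −0.0318 in the deposited table), DHX15 (0.00358 with no filter, 0.00829 at a minimum count of 50, −0.14 to 0.10), DDX4 (−0.39 to 0.33), DDX1 (−0.18 to 0.0145) and DDX47 (−0.21 to 0.10). DDX41 of G. lacustris lay at 0.26 with the authors' factors, 0.33 as a transcript and 0.26 in the deposited table.

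Pools share numbers across temperatures, but the labels do not state that these numbers pair samples. The correlation of same-numbered pools ran from −0.29 to 0.18, and at most 2 of 8 libraries of a species correlated best with their own number. These values show no pairing by number, but with so few pools they cannot exclude it. With a replicate block 198 rows and 0 members were called in E. verrucosus (DDX42 at 0.22), 48 rows in E. cyaneus, and 6 members higher and 14 lower in G. lacustris, without DDX27 (edgeR adjusted p = 0.062), DDX52 (0.102) and DHX35 (0.0775); DDX47 and DDX52 of E. verrucosus lay at 0.0506 and −0.00943 and DDX4 of E. cyaneus at 0.12 under the block. Low counts limit the members under the filter, whose highest count in a library was 23 in G. lacustris, 21 in E. verrucosus and 9 in E. cyaneus.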
